A study of Homo sapiens with 9 samples.

Results

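Translation initiation factor genes were described across BxPC3 cells under vehicle, after siRNA against STAT3 and under the compound WB436B. The members were all genes of the table whose symbol begins with EIF1 to EIF6, apart from the eIF2 kinases and from symbols of pseudogenes. The rule uses names only, and it took 51 of 60564 genes, leaving out 72 pseudogene symbols, of which 11 passed the filter on low values given below. BxPC3 is a human line established from a pancreatic ductal adenocarcinoma, and each group held 3 RNA-seq libraries labelled as biological replicates of that 1 line. Vehicle cells received no stated siRNA, the STAT3 siRNA cells were transfected to knock down STAT3, and the WB436B cells received 0.1 µM of the compound, which is known here only by its code name. The sources used here do not give the composition of the vehicle, the time under treatment or a non-targeting siRNA, so an effect of transfection and an effect of STAT3 loss cannot be told apart. The p-values cover only the spread among these libraries, since nothing beyond the label says that they were separate cultures.

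As background, initiation begins when eIF2 carries the initiator tRNA to the small ribosomal subunit, which eIF1, eIF1A, eIF3 and eIF5 also bind. The cap-binding protein eIF4E, the scaffold eIF4G and the helicase eIF4A then bring in the mRNA, eIF5 triggers GTP hydrolysis by eIF2 once the start codon is found, eIF5B joins the large subunit, and eIF2B recharges eIF2 with GTP. The 4E-BP proteins block eIF4E until the kinase mTORC1 phosphorylates them, and eIF4E and several other initiation factors are known as transcriptional targets of MYC, which is often active in pancreatic cancer cells.

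Some of the genes moved in the same direction under both treatments and others in opposite directions, so promoters of both kinds are shown. The letters are the 250 bases before the RefSeq start site, from GRCh38.p14 and read along the strand of the gene. EIF2B3 (region chr1:44986596-44986845 on the minus strand) and EIF5A2 (region chr3:170908638-170908887 on the minus strand) rose in both treatments, as did EIF4E (region chr4:98929134-98929383 on the minus strand), whereas EIF5B (region chr2:99337139-99337388 on the plus strand) fell after the siRNA and rose under WB436B. Capitals mark the E-box CACGTG, the core that MYC and related factors bind, and in EIF4E also a match to TTCNNNGAA, the core of STAT sites.
EIF2B3: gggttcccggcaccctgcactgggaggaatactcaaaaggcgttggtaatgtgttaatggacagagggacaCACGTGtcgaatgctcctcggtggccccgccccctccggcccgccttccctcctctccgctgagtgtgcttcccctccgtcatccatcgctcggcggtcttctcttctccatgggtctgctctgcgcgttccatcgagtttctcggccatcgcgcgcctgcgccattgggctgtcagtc
EIF5A2: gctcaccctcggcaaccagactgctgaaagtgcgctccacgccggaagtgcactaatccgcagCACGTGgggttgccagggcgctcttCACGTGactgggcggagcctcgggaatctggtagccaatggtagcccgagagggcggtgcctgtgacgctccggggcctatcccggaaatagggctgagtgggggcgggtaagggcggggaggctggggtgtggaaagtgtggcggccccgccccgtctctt
EIF4E: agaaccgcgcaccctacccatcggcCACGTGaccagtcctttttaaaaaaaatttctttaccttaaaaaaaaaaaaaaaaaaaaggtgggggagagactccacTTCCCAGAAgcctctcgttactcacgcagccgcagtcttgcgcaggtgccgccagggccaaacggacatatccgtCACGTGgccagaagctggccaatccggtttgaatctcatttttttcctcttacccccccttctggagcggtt
EIF5B: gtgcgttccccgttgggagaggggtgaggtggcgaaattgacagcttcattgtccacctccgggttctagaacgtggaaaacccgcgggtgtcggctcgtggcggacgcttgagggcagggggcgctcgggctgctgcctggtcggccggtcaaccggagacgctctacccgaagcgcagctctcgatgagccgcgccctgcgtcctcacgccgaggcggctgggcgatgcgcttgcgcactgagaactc
EIF2B3 held 1 E-box, with its first base 179 bases upstream of the start. EIF5A2 held 2, at 187 and 162 bases upstream, and EIF4E held 2, at 225 and 72 bases upstream, with the STAT match at 147 bases upstream. No searched motif was found in the window of EIF5B. The printed genes are examples and do not show how common a motif was. Of the 21 genes with a window that rose after the siRNA, 5 held an E-box, as did 5 of the 16 not called and none of the 2 that fell. Under WB436B, 6 of the 28 genes with a window that rose held one, 2 of the 5 that fell and 2 of the 6 not called.

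Windows were found for 43 of the 51 members, 58 windows in all since some genes have several starts. An E-box stood in 11 of these 58 windows (19.0%), against 6.34% of all 35116 RefSeq promoter windows of the same length. The STAT core stood in 3 (5.17%), against 6.57%, in EIF3I, EIF4E and EIF4EBP3. The cyclic AMP response element TGACGTCA and the amino acid response element TGATGCAA, which ATF4 and its partners bind, stood in none, against 1.65% and 0.772% of all windows. Matches were read on both strands and the E-box and STAT matches printed above do not overlap. A match describes letters and does not show binding. Among the 10 tested genes with an E-box, 6 rose and 2 fell under WB436B (median log2 fold change 0.26), and among the 29 tested genes with a window but no E-box, 22 rose and 3 fell (median 0.45).

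Values were FPKM, fragments scaled to transcript length and to the mapped fragments of the library, and tests were run with limma on log2(FPKM + 1) across the 12747 genes that reached 1 FPKM in at least 3 of the 9 libraries. Fold changes below are log2 differences on that scale, which understate changes of weakly expressed genes, and a gene is said to rise or fall where its adjusted p (limma, Benjamini-Hochberg over all 12747 genes) was below 0.05. Libraries correlated at 0.980 to 0.988 within groups and 0.918 to 0.941 between groups, and estimated depth was 15100000 to 47500000 fragments, with the highest value in vehicle library 1. That estimate is weak, because only 42.6% to 45.3% of the low values used came out as whole fragments within 0.05 fragment. STAT3 stood at 16.4, 15.8 and 15.1 FPKM under vehicle, 2.98, 2.58 and 3.02 after the siRNA and 10.5, 10.9 and 10.8 under WB436B, with log2 fold changes of -2.12 (adjusted p = 1.0e-07) and -0.52 (adjusted p = 6.5e-05). All 7 ductal and epithelial markers (keratins 7, 8, 18 and 19, EPCAM, CDH1 and MUC1) were above 1 FPKM in every group, with summed levels of 1101 to 1274 FPKM over the libraries. Single markers moved in both directions, among them KRT18 (0.87) and KRT7 (0.80) higher and KRT19 (-1.09) and MUC1 (-1.72) lower under WB436B. Markers of leukocytes summed to at most 3.15 FPKM, of fibroblasts to at most 2.40, of endothelium to at most 1.05 and of acinar and islet cells to at most 0.0119, and SMAD4, which BxPC3 is known to lack, was listed at 0 in all 9 libraries. Of these weak markers, CD14 (-0.99) and COL1A1 (-0.65) were called lower under WB436B, and their part in the results was not tested. In bulk samples, fewer cells of a type and less RNA per cell cannot be told apart.

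Of the 51 genes, 47 passed the filter on low values. EIF4E1B, a cap-binding paralog known from oocytes, was listed at 0 in every library, and EIF1AY, the Y-linked copy of EIF1AX, did not pass. EIF4EBP3, a further 4E-BP, stayed between 0.0376 and 0.531 FPKM, but it shares 73.4% of its exon bases with a readthrough transcript, ANKHD1-EIF4EBP3. EIF4E3, an atypical cap-binding protein, stood at 0.395, 0.609 and 0.458 FPKM under vehicle, 0.139, 0.150 and 0.243 after the siRNA and 0.137, 0.125 and 0.105 under WB436B. Its vehicle libraries did not overlap with the treated ones, but it lay under the filter and was not tested.

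Under vehicle, levels of the tested genes ran from 140.4 ± 0.336 FPKM (SD, n = 3) for EIF4H, a cofactor of eIF4A, to 0.919 ± 0.170 for EIF5AL1, a copy of EIF5A. EIF4H, the eIF3 subunit EIF3I (125 ± 1.48), EIF3CL (112 ± 2.47), the eIF2 beta subunit EIF2S2 (110.4 ± 4.90) and EIF4B (103 ± 1.63) led the order. EIF4E was near the bottom at 3.06 ± 0.142 FPKM, above EIF5A2 (1.75 ± 0.154) and EIF5AL1. Of the 46 pairs of neighbours in this order, 28 overlapped in their vehicle libraries, so that only broad differences in level are resolved. The 5 eIF2B subunit genes lay between 3.72 ± 0.109 FPKM (EIF2B4) and 15.7 ± 0.838 FPKM (EIF2B1), and the 3 genes of the eIF2 trimer at 21.7 ± 0.889 (EIF2S1), 55.0 ± 2.04 (EIF2S3) and 110.4 ± 4.90 (EIF2S2). FPKM is scaled by length, so these levels can be set beside each other, within the limits of how shared fragments were assigned.

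Most initiation factor genes were higher under WB436B than under vehicle. In that comparison, 33 of the 47 tested genes rose (70.2%; 24.9% of all tested genes rose) and 5 fell (10.6%; 41.1% of all fell), and 9 did not pass the test. Calls in either direction came to 80.9%, against 65.9% of all tested genes. The median log2 fold change was 0.43, beside -0.13 over all tested genes. A called rise of at least 1.5-fold in FPKM + 1 was seen in 16 of the 47 genes (34.0%), against 9.16% of all tested genes, and a fall of that size in none of them, against 21.0%. The libraries of both groups did not overlap for 40 genes (85.1%), against 70.1% of all. Of the 33 increases, 30 stayed called under every alternative setting in which they were tested, but none of the 5 decreases did. Among those 30, EIF2B4, EIF4E, EIF5A2 and EIF5AL1 were too low to be tested with the filter of 5 FPKM.

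After STAT3 siRNA, 22 of the 47 genes rose (46.8%; 29.8% of all tested genes rose) and 3 fell (6.38%; 22.3% of all fell), and 22 did not pass the test. The median log2 fold change was 0.16, beside 0.06 over all tested genes. The share called in either direction, 53.2%, was near the 52.1% of all tested genes. A change of at least 1.5-fold was seen in 3 genes, with EIF5 and EIF2B3 higher and EIF5B lower, against 6.75% of all tested genes higher and 8.33% lower by that much. The libraries did not overlap for 31 genes (66.0%), against 60.5% of all.

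Both comparisons share the vehicle libraries, so their values are set side by side only. A total of 17 genes rose in both: all of eIF2B but EIF2B4, EIF2S1 and EIF2S3 of eIF2, EIF3B, EIF3G and EIF3I of eIF3, EIF4A3, EIF4E, EIF4G1, EIF4G2, EIF5, EIF5A, EIF5A2 and EIF6. EIF1AX and EIF5B fell after the siRNA and rose under WB436B, and EIF2D and EIF4EBP2 did the reverse. EIF2A, EIF3H, EIF3K, EIF4B and EIF4EBP1 passed the test in neither. The direct comparison of WB436B with STAT3 siRNA, which tests the difference between both effects, called 25 of the 47 genes higher under WB436B (53.2%; 20.0% of all tested genes) and 9 lower (19.1%; 44.1% of all). Calls in either direction came to 72.3%, against 64.1% of all. Its median was 0.21, beside -0.18 over all tested genes, and the libraries did not overlap for 38 genes (80.9%), against 70.2% of all. A difference of at least 1.5-fold was seen in 8 genes higher under WB436B, against 6.87% of all tested genes, and in EIF1AD and EIF4EBP2 lower, against 19.9%. With median-of-ratios scaling (each library scaled by the median ratio of its genes to their geometric mean over libraries) in place of FPKM as deposited, the 25 and 9 became 38 and 3.

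**Figure D1:**
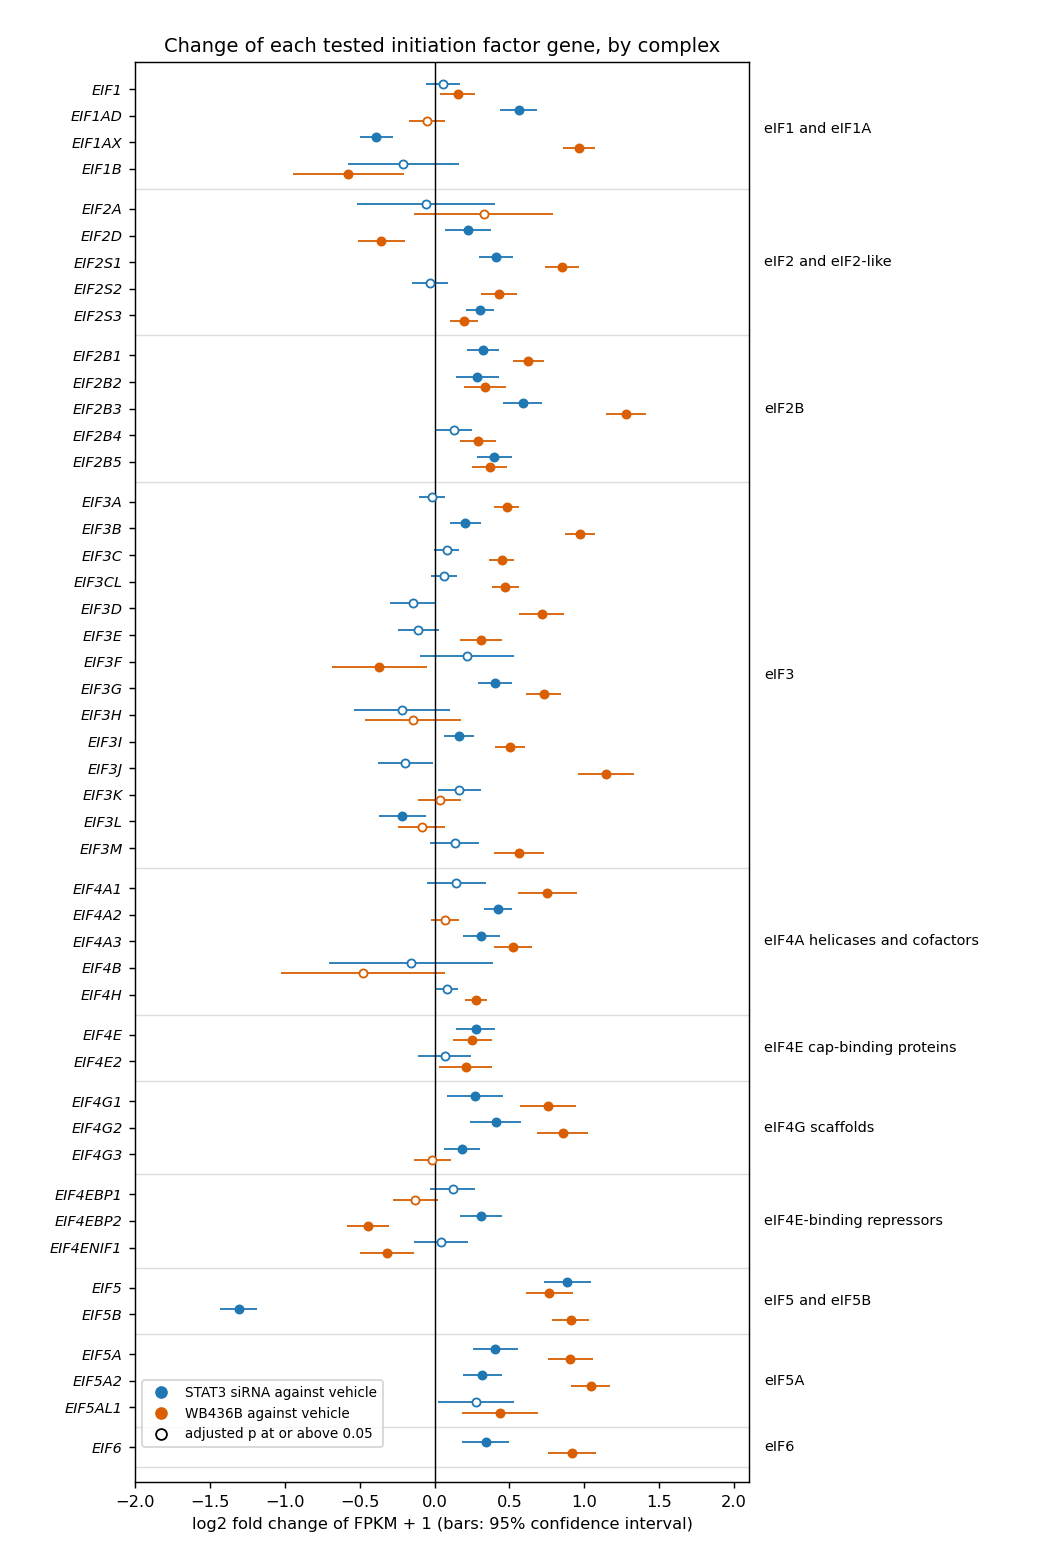
Log2 fold change of FPKM + 1 against vehicle for each of the 47 tested initiation factor genes, grouped by complex, after STAT3 siRNA (blue) and under WB436B (orange), with 95% confidence intervals; open symbols have an adjusted p of at least 0.05. Most orange points lie right of 0 (33 called higher, 5 lower), and EIF5B has its points on opposite sides of 0, at -1.31 and 0.91.

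The plot of fold changes by complex shows the same split. WB436B gave called increases in all 5 eIF2B genes, 10 of 14 eIF3 genes, all 3 eIF5A genes, EIF6 and both of EIF5 and EIF5B, whereas no eIF4E-binding repressor rose and 2 of 3 tested fell. Of all tested genes, 24.9% rose and 41.1% fell under WB436B. STAT3 siRNA gave called increases in 4 of 5 eIF2B genes, all 3 eIF4G genes and 3 of 14 eIF3 genes, beside 29.8% of all tested genes. Of the eIF4G calls after the siRNA, only that of EIF4G2 stayed under every alternative. Summed over all 51 genes, initiation factors made up 0.634%, 0.617% and 0.599% of the FPKM total in the vehicle libraries, 0.710%, 0.707% and 0.692% after the siRNA, and 0.896%, 0.877% and 0.915% under WB436B. The 3 groups did not overlap in this share.

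The factors that bind the small subunit and govern start codon choice moved apart. EIF1AX, which encodes the eIF1A protein that promotes scanning, stood at 13.9, 13.9 and 15.0 FPKM under vehicle, 10.7, 10.2 and 11.1 after STAT3 siRNA and 29.4, 28.6 and 28.4 under WB436B. The 3 groups did not overlap, with the siRNA libraries lowest and the WB436B libraries highest. The log2 fold change was -0.39 (SE 0.0468, adjusted p = 0.00021) after the siRNA and 0.96 (SE 0.0468, adjusted p = 6.1e-07) under WB436B, and the direct difference between the treatments was 1.35 (adjusted p = 2.1e-07). A processed copy, EIF1AXP1, averaged 2.46 FPKM under vehicle, 2.28 after the siRNA and 5.47 under WB436B, so the assignment of fragments between both copies is uncertain.

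EIF1AD, an eIF1A-like protein of less known function, stood at 7.81, 7.01 and 7.29 FPKM under vehicle, 11.5, 11.5 and 11.0 after the siRNA and 6.86, 6.92 and 7.46 under WB436B. Only the siRNA libraries were apart, by 0.56 (SE 0.0533, adjusted p = 5.4e-05) on the log2 scale. Under WB436B the change was -0.05 (adjusted p = 0.43), which turned to 0.21 (adjusted p = 0.0079) with median-of-ratios scaling. EIF1B, a close relative of EIF1, stood at 7.27, 6.63 and 10.4 FPKM under vehicle, 7.53, 5.66 and 7.23 after the siRNA and 5.07, 4.42 and 5.63 under WB436B, and fell under WB436B by 0.58 on the log2 scale (adjusted p = 0.013). Median-of-ratios scaling removed that call (-0.32, adjusted p = 0.11). EIF1 itself, the guardian of start codon fidelity, changed by 0.06 (adjusted p = 0.38) and 0.15 (adjusted p = 0.024), and the latter call was lost with quantile normalization (0.011, adjusted p = 0.82), without vehicle library 1 (0.13, adjusted p = 0.078), without vehicle library 2 (adjusted p = 0.085) or without WB436B library 1 (adjusted p = 0.078).

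Within the eIF2 trimer, which carries the initiator tRNA, the alpha subunit changed most. EIF2S1, whose product is the subunit phosphorylated by the stress kinases, stood at 21.0, 21.5 and 22.7 FPKM under vehicle, 30.3, 27.4 and 30.0 after the siRNA and 40.3, 40.2 and 39.4 under WB436B. The groups formed a staircase with no overlap, and the log2 fold changes were 0.41 (SE 0.0498, adjusted p = 0.00021) and 0.85 (SE 0.0498, adjusted p = 1.5e-06). The beta subunit gene EIF2S2 rose under WB436B by 0.43 (adjusted p = 0.00012) and changed by -0.03 (adjusted p = 0.68) after the siRNA. The gamma subunit gene EIF2S3 rose by 0.31 after the siRNA and by 0.20 under WB436B (adjusted p = 0.00038 and 0.0028), and the call under WB436B was lost with quantile normalization (0.039, adjusted p = 0.38).

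EIF2D and EIF2A are eIF2-like factors that can deliver tRNA by other routes. EIF2D stood at 3.90, 4.55 and 4.24 FPKM under vehicle, 4.93, 4.83 and 5.55 after the siRNA and 3.19, 2.92 and 3.12 under WB436B. It rose by 0.22 after the siRNA (adjusted p = 0.024) and fell by 0.36 under WB436B (adjusted p = 0.0017), with no overlap between the treated groups. The increase was not called without vehicle library 1 (adjusted p = 0.08), vehicle library 3 (adjusted p = 0.05) or siRNA library 3 (adjusted p = 0.081), and the decrease was not called with median-of-ratios scaling (-0.13, adjusted p = 0.11) or quantile normalization (-0.14, adjusted p = 0.088). EIF2A, chosen here after its values were seen, stood at 11.7, 11.0 and 19.3 FPKM under vehicle, 13.4, 12.8 and 12.8 after the siRNA and 15.0, 21.7 and 15.8 under WB436B. Vehicle library 3 was far above the other vehicle libraries, and the change under WB436B was 0.33 (adjusted p = 0.18) with it and 0.57 (adjusted p = 0.0089) without it. With median-of-ratios scaling of all libraries it was 0.61 (adjusted p = 0.027).

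All 5 subunits of eIF2B, the exchange factor that recharges eIF2, rose under WB436B, and 4 of 5 rose after the siRNA. EIF2B3, the gamma subunit, had the largest increase of any member under WB436B. It stood at 4.03, 4.25 and 3.82 FPKM under vehicle, 6.59, 6.69 and 6.42 after the siRNA and 10.4, 11.7 and 11.6 under WB436B, again a staircase with no overlap. The log2 fold changes were 0.59 (SE 0.0581, adjusted p = 6.7e-05) and 1.28 (SE 0.0581, adjusted p = 4.4e-07), with a direct difference of 0.69 (adjusted p = 1.6e-05); its promoter, printed above, holds 1 E-box.

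The other eIF2B subunits changed less than EIF2B3. EIF2B1 (alpha) rose by 0.32 after the siRNA and 0.63 under WB436B, EIF2B2 (beta) by 0.29 and 0.34, and EIF2B5, the catalytic epsilon subunit, by 0.40 and 0.37. EIF2B4 (delta) rose by 0.29 under WB436B (adjusted p = 0.0014) and changed by 0.13 (adjusted p = 0.074) after the siRNA. The direct difference was 0.30 (adjusted p = 0.00047) for EIF2B1 and 0.16 (adjusted p = 0.026) for EIF2B4, while EIF2B2 and EIF2B5 had differences of 0.05 (adjusted p = 0.5) and -0.03 (adjusted p = 0.64), and that of EIF2B5 turned to 0.29 (adjusted p = 0.00066) with median-of-ratios scaling. The call of EIF2B4 was lost without siRNA library 1 or 3 or WB436B library 1 (adjusted p = 0.066, 0.088 and 0.09).

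**Figure D2:**
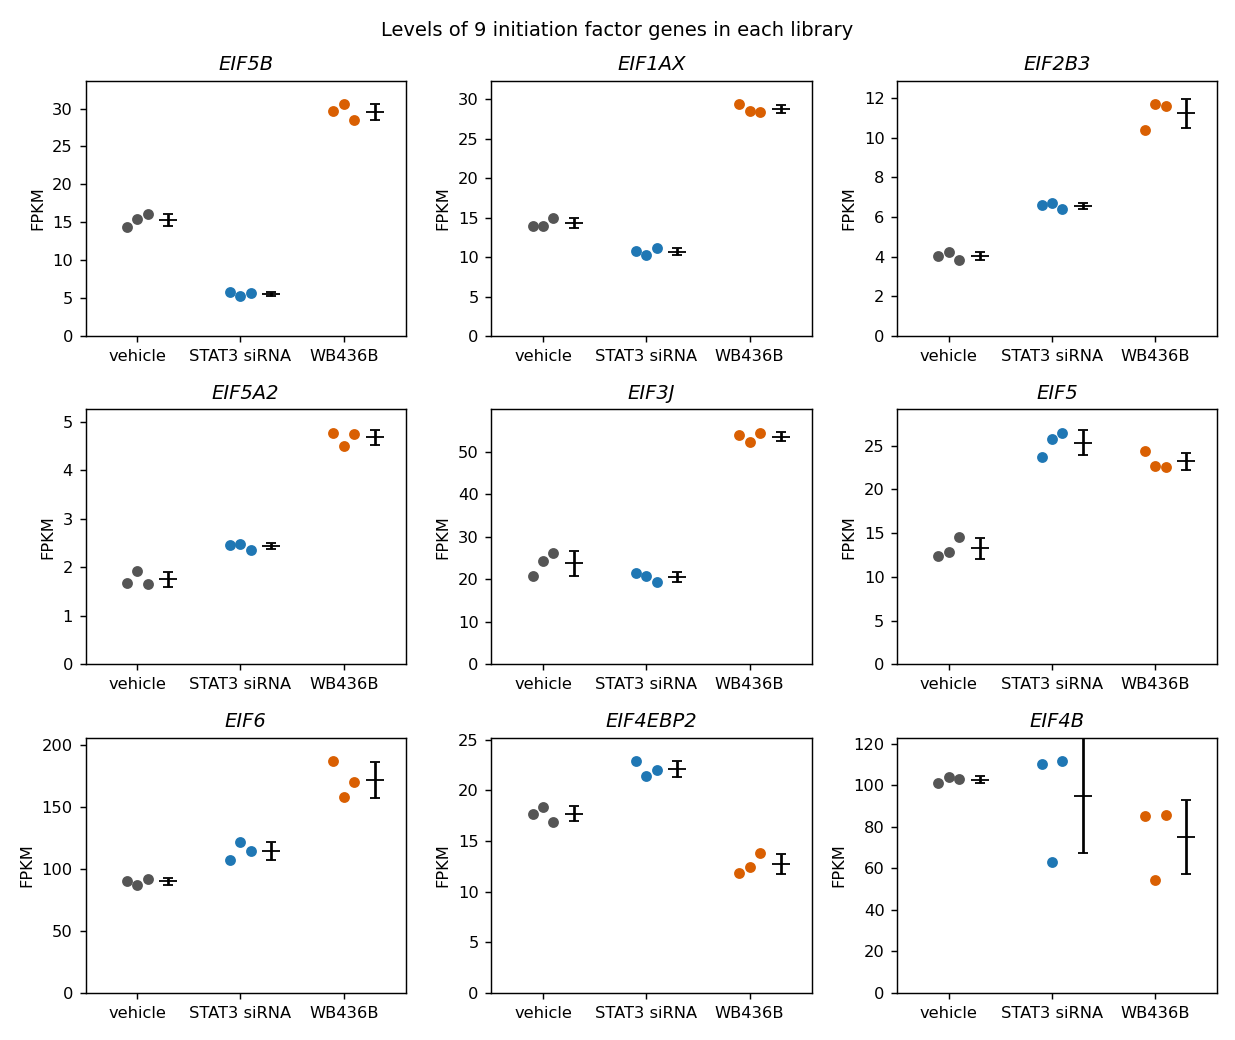
FPKM of 9 initiation factor genes in each library (points, 3 per group, in the order of their labels) with the group mean and SD beside them, on axes that start at 0. EIF5B lies lowest after STAT3 siRNA and highest under WB436B, EIF2B3 and EIF5A2 step up from vehicle to siRNA to WB436B, and EIF4B is low in the second library of each treated group.

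In eIF3, the multi-subunit platform on the small ribosomal subunit, WB436B raised 10 of 14 genes and lowered 1 (median log2 fold change 0.48), while STAT3 siRNA raised 3 and lowered 1 (median 0.07). The direct comparison called 10 higher and 1 lower under WB436B. Of all tested genes, 24.9% rose under WB436B, 29.8% rose after the siRNA and 20.0% were higher in the direct comparison. EIF3J, a loosely bound subunit that acts in ribosome recycling and start site selection, stood at 20.7, 24.3 and 26.3 FPKM under vehicle, 21.4, 20.9 and 19.3 after the siRNA and 53.9, 52.4 and 54.5 under WB436B. Vehicle and siRNA libraries overlapped and the WB436B libraries lay above both. The log2 fold change was 1.15 (SE 0.0811, adjusted p = 4.4e-06) under WB436B and -0.19 (adjusted p = 0.075) after the siRNA, where leaving out vehicle library 1 (-0.29, adjusted p = 0.0065) and median-of-ratios scaling (-0.24, adjusted p = 0.031) gave a call.

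EIF3B, a scaffold subunit, had the smallest adjusted p of the complex. It stood at 26.1, 26.4 and 28.4 FPKM under vehicle, 31.7, 32.0 and 30.1 after the siRNA and 53.5, 53.2 and 54.6 under WB436B, with log2 fold changes of 0.21 (SE 0.0443, adjusted p = 0.0047) and 0.97 (SE 0.0443, adjusted p = 4.5e-07). By a grouping into structural modules made after the values were seen, EIF3B, EIF3G and EIF3I, which form the mobile b-g-i module, rose in both comparisons, with medians of 0.21 after the siRNA and 0.73 under WB436B. EIF3G rose by 0.40 and 0.73, and EIF3I by 0.16 and 0.51, of which the siRNA call of EIF3I was lost with median-of-ratios scaling (0.11, adjusted p = 0.071).

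The 8 genes of the octamer core, counting EIF3C once, were more mixed. Under WB436B 4 rose and 1 fell (median 0.17), and after the siRNA none rose and 1 fell (median 0.03). EIF3A, EIF3E, EIF3M and EIF3C rose under WB436B, by 0.48, 0.31, 0.56 and 0.45. EIF3D, the subunit that can bind the cap itself, rose by 0.72 (adjusted p = 2.0e-05) and changed by -0.14 (adjusted p = 0.098) after the siRNA.

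EIF3F, an MPN-domain subunit, stood at 10.2, 7.48 and 10.2 FPKM under vehicle, 13.3, 9.81 and 9.88 after the siRNA and 7.17, 6.77 and 6.86 under WB436B. The WB436B libraries were below all others, but the decrease against vehicle, -0.37 (SE 0.137, adjusted p = 0.042), was not called without vehicle library 1 or 3 (adjusted p = 0.13 each), without WB436B library 1, 2 or 3 (adjusted p = 0.072, 0.097 and 0.09), or under any of the 3 other scalings. EIF3L stood at 39.2, 39.8 and 43.9 FPKM under vehicle, 33.9, 35.4 and 36.1 after the siRNA and 41.2, 39.6 and 35.1 under WB436B. Its decrease after the siRNA, -0.22 (SE 0.0686, adjusted p = 0.028), was not called without vehicle library 3 (adjusted p = 0.087), siRNA library 1 (adjusted p = 0.088) or siRNA library 2 (adjusted p = 0.058). It was also not called with no filter (adjusted p = 0.064) or with the replicate block (adjusted p = 0.063). Under WB436B EIF3L changed by -0.08 (adjusted p = 0.31). It was called higher there with median-of-ratios scaling (0.21, adjusted p = 0.032) and lower with quantile normalization (-0.20, adjusted p = 0.02). EIF3L shares 41.1% of its exon bases with a gene on the same strand, AL022311.1, which stayed at or below 0.361 FPKM. EIF3H changed by -0.21 (adjusted p = 0.23) and -0.14 (adjusted p = 0.4), and was called lower in both when vehicle library 1 (22.1 FPKM, against 31.5 and 31.2) was left out (-0.38 and -0.30, adjusted p = 0.018 and 0.032). EIF3K changed by 0.16 (adjusted p = 0.056) and 0.04 (adjusted p = 0.63). After the siRNA it was called higher with equal totals (0.22, adjusted p = 0.016) and with quantile normalization (0.19, adjusted p = 0.028). That call was also gained in the fit of only the groups compared (adjusted p = 0.027) and without WB436B library 1 or 3 (adjusted p = 0.031 and 0.024). Under WB436B it was called higher with median-of-ratios scaling (0.33, adjusted p = 0.0025). EIF3C and EIF3CL are near-identical copies whose ratio stayed at 0.390 to 0.411 in all libraries, so they are better read as 1 gene, with a sum of 157 ± 2.72 FPKM under vehicle, 165 ± 4.47 after the siRNA and 218 ± 4.77 under WB436B (SD, n = 3).

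**Figure D3:**
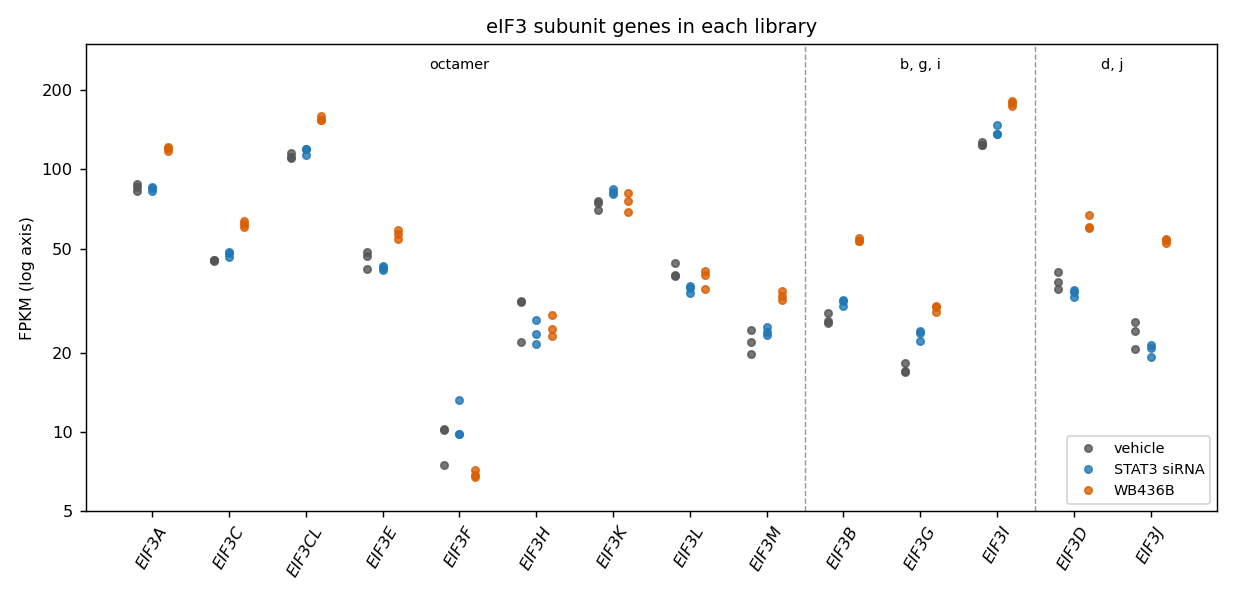
FPKM on a log axis of the 14 eIF3 subunit genes in each library, in the order octamer, b-g-i module, and d and j, with vehicle in grey, STAT3 siRNA in blue and WB436B in orange. EIF3B, EIF3D and EIF3J show the widest gap between the WB436B libraries and the rest, and EIF3F is the only subunit with its WB436B libraries below all others.

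A start site feature ran across these complexes. An mRNA that begins with C followed by 4 pyrimidines has the start of a terminal oligopyrimidine tract, the element through which mTORC1 and LARP1 control the translation of ribosomal proteins and some initiation factors. Such a start was annotated for 9 of the 58 windows (15.5%), against 4.07% of all windows, in EIF2A, EIF2D, EIF2S3, EIF3D, EIF3F, EIF3K, EIF3M, EIF4A2 and EIF4B. Of these 9 genes, 3 rose and 2 fell under WB436B (median 0.07), while of the 30 tested genes with a window and no such start, 25 rose and 3 fell (median 0.52). The split was made after the values were seen and was not tested.

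Of the cap-binding proteins, EIF4E rose in both comparisons and EIF4E2 under WB436B. EIF4E stood at 2.99, 2.96 and 3.22 FPKM under vehicle, 4.05, 3.62 and 4.06 after the siRNA and 3.83, 3.73 and 3.94 under WB436B. Both treated groups lay above vehicle and overlapped with each other, with log2 fold changes of 0.27 (SE 0.0564, adjusted p = 0.0037) and 0.25 (SE 0.0564, adjusted p = 0.0039). The processed copy EIF4EP2 averaged 9.07, 13.7 and 12.9 FPKM in the same groups, above EIF4E itself, so how fragments were divided between them limits the level of EIF4E; the sum of both was 12.1 ± 1.11 FPKM under vehicle, 17.6 ± 0.908 after the siRNA and 16.7 ± 0.661 under WB436B (SD, n = 3). EIF4E2, a cap-binding homologue linked to repression, changed by 0.07 (adjusted p = 0.49) and 0.21 (adjusted p = 0.04); the latter was not called without any 1 of vehicle libraries 1 and 2, siRNA library 1 and WB436B libraries 1 and 2 (adjusted p = 0.072, 0.12, 0.056, 0.098 and 0.1).

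No eIF4E-binding repressor rose under WB436B, and EIF4EBP2 and EIF4ENIF1 fell. EIF4EBP2 stood at 17.7, 18.4 and 16.9 FPKM under vehicle, 22.9, 21.4 and 22.0 after the siRNA and 11.8, 12.5 and 13.8 under WB436B. The siRNA libraries lay above and the WB436B libraries below vehicle, with log2 fold changes of 0.31 (SE 0.0613, adjusted p = 0.0031) and -0.45 (SE 0.0613, adjusted p = 0.00024) and a direct difference of -0.75 (adjusted p = 1.4e-05). The decrease against vehicle was -0.17 (adjusted p = 0.03) with median-of-ratios scaling, and was not called when the replicate number was added to that fit as a block (adjusted p = 0.064). EIF4ENIF1, the eIF4E transporter 4E-T, fell by 0.32 under WB436B (adjusted p = 0.007), a call lost with median-of-ratios scaling (-0.098, adjusted p = 0.27) and quantile normalization (-0.061, adjusted p = 0.5), and changed by 0.04 (adjusted p = 0.67) after the siRNA. EIF4EBP1, the most abundant 4E-BP here, stood at 45.8, 48.4 and 55.8 FPKM under vehicle, 54.5, 54.9 and 53.5 after the siRNA and 45.2, 46.2 and 45.2 under WB436B, and passed the test in neither comparison on the FPKM as deposited. After the siRNA it was called higher with equal totals (0.17, adjusted p = 0.018), with quantile normalization (0.16, adjusted p = 0.04) and without vehicle library 3 (0.20, adjusted p = 0.0052). Under WB436B it was called lower with quantile normalization (-0.25, adjusted p = 0.0036) and without vehicle library 1 (-0.19, adjusted p = 0.031), but stood at 0.16 (adjusted p = 0.053) with median-of-ratios scaling. The summed level of EIF4EBP1 and EIF4EBP2 was 22.1 ± 0.781 times that of EIF4E under vehicle, 19.6 ± 1.29 times after the siRNA and 15.2 ± 0.460 times under WB436B (SD, n = 3), and the WB436B libraries did not overlap with the others. This ratio counts EIF4E without EIF4EP2, so the limit on the level of EIF4E given above holds for it too.

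All 3 scaffold genes rose after the siRNA, and EIF4G1 and EIF4G2 rose under WB436B. EIF4G2 (DAP5), a scaffold that lacks the eIF4E-binding site, stood at 69.1, 74.5 and 65.5 FPKM under vehicle, 92.0, 100.4 and 86.2 after the siRNA and 119, 126 and 136 under WB436B. The groups did not overlap, and the log2 fold changes were 0.41 (SE 0.0750, adjusted p = 0.002) and 0.86 (SE 0.0750, adjusted p = 1.5e-05). EIF4G1, the principal scaffold of cap-dependent initiation, rose by 0.76 under WB436B (adjusted p = 5.1e-05), and its increase after the siRNA, 0.27 (adjusted p = 0.022), was not called without vehicle library 2 or 3 or siRNA library 1 or 2 (adjusted p = 0.073, 0.071, 0.068 and 0.069). That increase was also not called with no filter or with median-of-ratios scaling (adjusted p = 0.057 each). EIF4G3 rose after the siRNA by 0.18 (adjusted p = 0.019, and 0.057, 0.057 and 0.055 without vehicle library 1, vehicle library 3 or siRNA library 1) and changed by -0.01 (adjusted p = 0.83) under WB436B, a value that turned to 0.27 (adjusted p = 0.0012) with median-of-ratios scaling. Its siRNA call was also lost with the replicate block and median-of-ratios scaling together (adjusted p = 0.085).

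The eIF4A helicases, which unwind the leader of the mRNA, differed between their paralogs. EIF4A3, the helicase of the exon junction complex, stood at 10.4, 10.5 and 11.0 FPKM under vehicle, 12.6, 13.8 and 14.0 after the siRNA and 16.3, 16.0 and 14.9 under WB436B, and rose in both, by 0.31 (adjusted p = 0.0016) and 0.53 (adjusted p = 4.5e-05) on the log2 scale. EIF4A2 stood at 24.1, 25.2 and 26.1, 34.4, 33.2 and 34.4 and 26.3, 26.1 and 27.0 FPKM in the same order of groups, and rose after the siRNA by 0.42 (adjusted p = 6.2e-05), while its change under WB436B, 0.07 (adjusted p = 0.15), was called only with equal totals (0.14) or median-of-ratios scaling (0.36).

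EIF4A1, the main helicase of initiation, rose under WB436B by 0.75 (adjusted p = 7.6e-05) and changed by 0.14 (adjusted p = 0.19) after the siRNA. It shares 41.1% of its exon bases with a gene on the same strand, AC016876.2, which stood at 3.11 to 5.56 FPKM. It also shares 29.8% with a readthrough transcript, SENP3-EIF4A1, which ranged from 1.12 FPKM in vehicle library 2 to 49.5 FPKM in WB436B library 1. The sum of EIF4A1 and SENP3-EIF4A1 was 67.9 ± 2.32 FPKM under vehicle, 82.1 ± 7.36 after the siRNA and 138 ± 8.61 under WB436B (SD, n = 3). The ratio of EIF4A1 to EIF4A2 was 2.31 ± 0.224 under vehicle, 1.88 ± 0.135 after the siRNA and 3.71 ± 0.236 under WB436B, with no overlap between the 3 groups. This ratio leaves out SENP3-EIF4A1, which stood at 15.9 and 12.7 FPKM in vehicle libraries 1 and 3 but at 1.12 in library 2. The separation of vehicle from siRNA in the ratio therefore depends on how fragments were divided between both transcripts.

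Of the eIF4A cofactors, EIF4H rose under WB436B by 0.28 (adjusted p = 9.1e-05) and changed by 0.08 (adjusted p = 0.063) after the siRNA. EIF4B, named here after its values were seen, stood at 101, 104 and 103 FPKM under vehicle, 110.0, 63.0 and 112 after the siRNA and 85.1, 54.4 and 85.4 under WB436B. The library numbered 2 was low in each treated group, and the changes were -0.16 (adjusted p = 0.61) and -0.48 (adjusted p = 0.11). Without siRNA library 2, the change under WB436B stayed at -0.48 and had an adjusted p of 0.033, since only the spread shared by the groups changed. Without WB436B library 2, it was -0.26 (adjusted p = 0.34). It was called with the replicate number as a block (adjusted p = 0.044), but not with median-of-ratios scaling (-0.18, adjusted p = 0.52). With both treated libraries numbered 2 left out, an alternative chosen after seeing the data, it was -0.26 (adjusted p = 0.0019).

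**Figure D4:**
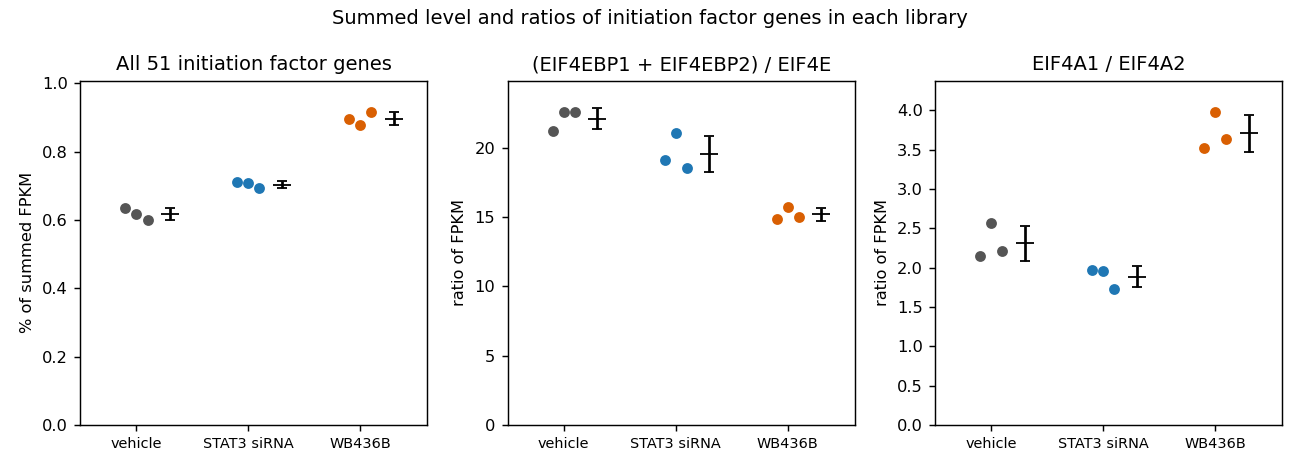
Share of the summed FPKM taken by all 51 initiation factor genes (left), ratio of summed EIF4EBP1 and EIF4EBP2 to EIF4E (middle) and ratio of EIF4A1 to EIF4A2 (right) in each library, with group mean and SD. The share rises from 0.616% under vehicle to 0.896% under WB436B, and the repressor ratio is lowest under WB436B, at 15.2 against 22.1 under vehicle. EIF4E is counted without its processed copy EIF4EP2, and EIF4A1 without the readthrough transcript SENP3-EIF4A1.

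EIF5B had the largest difference between the treatments among the tested members. EIF5B, the GTPase that joins the large ribosomal subunit, stood at 14.4, 15.4 and 16.0 FPKM under vehicle, 5.78, 5.30 and 5.62 after STAT3 siRNA and 29.6, 30.6 and 28.4 under WB436B. All 3 groups were far apart relative to the spread within them. The log2 fold change was -1.31 (SE 0.0540, adjusted p = 7.1e-07) after the siRNA and 0.91 (SE 0.0540, adjusted p = 1.6e-06) under WB436B, with a direct difference of 2.22 (SE 0.0540, adjusted p = 5.2e-08), and both calls held under every alternative tried. EIF5, the GTPase-activating protein of eIF2, rose in both comparisons. It stood at 12.4, 12.8 and 14.6 FPKM under vehicle, 23.7, 25.8 and 26.5 after the siRNA and 24.4, 22.7 and 22.6 under WB436B. The log2 fold changes were 0.89 (SE 0.0693, adjusted p = 1.8e-05) and 0.77 (SE 0.0693, adjusted p = 1.8e-05), and the direct difference, -0.12 with a 95% confidence interval from -0.28 to 0.04, was not called (adjusted p = 0.16) but turned to 0.22 (adjusted p = 0.024) with median-of-ratios scaling and to -0.25 (adjusted p = 0.011) with quantile normalization.

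The eIF5A genes encode the hypusine-bearing factor that acts mainly in elongation and termination. EIF5A2, the paralog often amplified in cancer, stood at 1.68, 1.93 and 1.65 FPKM under vehicle, 2.46, 2.48 and 2.36 after the siRNA and 4.77, 4.51 and 4.75 under WB436B. It stepped up without overlap, with log2 fold changes of 0.32 (SE 0.0569, adjusted p = 0.0017) and 1.04 (SE 0.0569, adjusted p = 1.0e-06); its printed promoter holds 2 E-boxes. EIF5A, the common form, rose by 0.41 and 0.91 from 78.4 ± 2.75 FPKM, and was 44.9 ± 3.28 times EIF5A2 under vehicle and 31.7 ± 2.17 times under WB436B. EIF5AL1, a copy of EIF5A whose fragments may be exchanged with it, rose under WB436B by 0.44 (adjusted p = 0.0076) and changed by 0.28 (adjusted p = 0.067) after the siRNA. Of the enzymes that make hypusine, DOHH rose under WB436B by 0.91 (adjusted p = 0.00031) and after the siRNA by 0.36 (adjusted p = 0.048), and DHPS fell under WB436B by 0.67 (adjusted p = 0.00028).

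EIF6, which keeps the large subunit from joining too early, stood at 90.8, 87.3 and 92.4 FPKM under vehicle, 107, 122 and 115 after the siRNA and 187, 158 and 170.2 under WB436B. The groups did not overlap and the log2 fold changes were 0.34 (SE 0.0698, adjusted p = 0.0036) and 0.92 (SE 0.0698, adjusted p = 6.7e-06). An overlapping gene on the same strand, AL121753.1, shares 17.4% of its exon bases and stayed at or below 0.568 FPKM.

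Other genes of the pathway were counted list by list, beside shares over all tested genes of 29.8% higher and 22.3% lower after the siRNA and 24.9% higher and 41.1% lower under WB436B. Of 9 kinases and phosphatase subunits acting on eIF2, 2 rose (22.2%) and 1 fell (11.1%) after the siRNA, and 4 rose (44.4%) and 4 fell (44.4%) under WB436B. The endoplasmic reticulum kinase PERK (EIF2AK3) fell under WB436B by 0.65 (adjusted p = 9.5e-06), and the phosphatase subunit PPP1R15A (GADD34), which ATF4 induces, rose by 0.55 after the siRNA and 0.50 under WB436B. ATF4, the transcription factor translated when eIF2 is phosphorylated, stood at 147, 149 and 159.8 FPKM under vehicle, 203, 209 and 216 after the siRNA and 113, 105 and 101 under WB436B, with log2 fold changes of 0.46 (adjusted p = 0.00018) and -0.51 (adjusted p = 5.1e-05).

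Of 13 tested genes of mTORC1 and cap-dependent signalling, 7 rose (53.8%) and 1 fell (7.69%) after the siRNA. Under WB436B 4 rose (30.8%) and 6 fell (46.2%), shares near those of all tested genes. PDCD4, which binds and blocks eIF4A, stood at 16.1, 16.3 and 18.3 FPKM under vehicle, 9.57, 9.09 and 9.42 after the siRNA and 3.62, 3.50 and 4.33 under WB436B. It fell in both, by 0.79 (adjusted p = 6.1e-05) and 1.89 (adjusted p = 2.5e-07). LARP1 rose by 0.59 and 0.40, and TSC1, an inhibitor of mTORC1, fell under WB436B by 0.53 (adjusted p = 2.8e-05).

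Of 15 tested poly(A)-binding, helicase and reinitiation genes, 4 rose and 4 fell (26.7% each) after the siRNA, and 7 rose (46.7%) and 4 fell (26.7%) under WB436B. ABCE1, which splits ribosomes after termination, stood at 15.9, 15.9 and 17.3 FPKM under vehicle, 22.0, 20.4 and 21.7 after the siRNA and 39.9, 42.7 and 42.6 under WB436B, a rise of 0.36 and 1.30 (adjusted p = 0.0005 and 2.4e-07). GIGYF1, a partner of EIF4E2 in repression, fell under WB436B by 1.04 (adjusted p = 8.4e-07), and NCBP1, a nuclear cap-binding subunit, rose by 0.59 and 0.67.

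The later steps of translation were counted in the same way. Of 6 tested elongation genes, 4 rose (66.7%) and none fell after the siRNA, and 1 rose and 1 fell (16.7% each) under WB436B, with EEF1B2 higher (0.42) and the inhibitory kinase EEF2K lower, at -0.51 (adjusted p = 2.5e-05). The release factors ETF1 and GSPT1 rose under WB436B by 0.72 and 0.75, whereas GSPT2 fell by 0.88. None of the 3 was called after the siRNA at an adjusted p below 0.05. Of both mitochondrial initiation factors, MTIF2 rose under WB436B by 0.29 (adjusted p = 0.0053). The differences between these lists and the initiation factors were not tested.

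MYC stood at 2.93, 4.30 and 13.9 FPKM under vehicle, 10.5, 11.3 and 3.49 after the siRNA and 14.1, 13.1 and 14.8 under WB436B. The vehicle and siRNA libraries were scattered and overlapped, the WB436B libraries were close together and overlapped with vehicle library 3, and neither change was called, at 0.34 (adjusted p = 0.61) and 1.15 (adjusted p = 0.082).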

How the data were processed

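RNA was measured in 9 BxPC3 libraries in 3 groups of 3. The authors deposited one table of FPKM values per gene and library. Per the submitters' processing notes, Bowtie 0.12.2 and the build mm8 were used; mm8 is a mouse assembly and the identifiers are human Ensembl ones, so coordinates come only from RefSeq. The sources used here do not give the program behind the FPKM values or its handling of strand and shared fragments.

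Values were tested as log2(FPKM + 1) for the 12747 genes that reached 1 FPKM in 3 or more libraries (21% of the table), using limma 3.58.1 (R 4.3.3) with its mean-variance trend (all 9 libraries in a single fit with 6 residual degrees of freedom, two-sided, Benjamini-Hochberg, called below 0.05). FPKM divides by the library total, so large changes elsewhere shift all values. The script was tested on simulated data. All values in every library were given for the 3 largest called increases and decreases against vehicle, the 2 largest of each between treatments, and the member with the smallest adjusted p of each complex. The members and lists were chosen with earlier results of these data known. Exon overlap was taken from GENCODE release 29, which held all 51 identifiers, and promoters from RefSeq (GRCh38.p14). Alternatives were pseudocounts of 0.1 and 0.5, no filter or 5 FPKM, 3 other scalings, fits of only the groups compared, a replicate block, and leaving out each library.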

Additional observations from a re-analysis of the deposited data

Results flagged for a closer look

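Genes were flagged where both changes against vehicle were called in opposite directions and the direct comparison of WB436B with STAT3 siRNA was also called. This rule picked 4 genes. The direct adjusted p-values (limma, over all tested genes) were part of the choice and add no separate support. EIF5B differed by 2.22 on the log2 scale (adjusted p = 5.2e-08), from changes against vehicle of -1.31 after the siRNA and 0.91 under WB436B. EIF1AX differed by 1.35 (adjusted p = 2.1e-07), from -0.39 and 0.96. EIF4EBP2 differed by -0.75 (adjusted p = 1.4e-05), from 0.31 and -0.45. EIF2D differed by -0.58 (adjusted p = 0.00011), from 0.22 and -0.36. For EIF2D, neither change against vehicle stayed called under every alternative, and for EIF4EBP2 the decrease under WB436B did not. All 3 libraries of each treatment lay on the stated side of the other treatment's libraries in each of the 4 genes. Of all tested genes, 70.2% had no overlap between the libraries of both treatments.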

How the results depend on the processing

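With 141 member values under 20 alternatives, 2593 of 2802 recomputed values kept direction and call, 86 lost the call, 71 gained it and 52 turned sign, of which 32 were called under neither setting. Decreases after the siRNA numbered 6 instead of 3 with median-of-ratios scaling, and 2 to 7 when 1 library was left out, the highest without vehicle library 1. Decreases under WB436B numbered 3 instead of 5 with a filter of 5 FPKM, where 41 members were tested, and 1 with median-of-ratios scaling, with or without the replicate block. Between the treatments, median-of-ratios scaling gave 38 higher instead of 25 and 3 lower instead of 9, and the replicate block with that scaling also gave 3 lower. That scaling moved the median of all tested genes under WB436B from -0.13 to 0.11, and quantile normalization moved it to 0.03. The sign turned with median-of-ratios scaling, with and without the block, for WB436B against vehicle in EIF1AD (0.21), EIF3H (0.14), EIF3L (0.21), EIF4EBP1 (0.16) and EIF4G3 (0.27). For WB436B against the siRNA it turned in EIF2B5 (0.29), EIF2S3 (0.24), EIF3K (0.22), EIF4B (0.026), EIF4E (0.26), EIF4EBP1 (0.094), EIF4G3 (0.13) and EIF5 (0.22). With quantile normalization it turned for WB436B against vehicle in EIF1AD (0.044), EIF3K (-0.095) and EIF4A2 (-0.028), against the siRNA in EIF1 (-0.078), EIF3H (-0.052) and EIF4E (0.21), and for the siRNA against vehicle in EIF2S2 (0.0045). With equal totals it turned for the siRNA in EIF2S2 (0.026) and EIF3A (0.038) and for WB436B in EIF1AD (0.012) and EIF4G3 (0.053). With both treated libraries numbered 2 left out it turned for the siRNA in EIF2S2 (0.0049) and EIF4B (0.11) and between the treatments in EIF2B5 (0.017). When 1 library was left out, values after the siRNA spanned 0 in EIF2A (-0.20 to 0.18), EIF2S2 (-0.057 to 0.0053), EIF3A (-0.036 to 0.0024), EIF4B (-0.30 to 0.11), EIF4E2 (-0.0079 to 0.14) and EIF4ENIF1 (-0.022 to 0.089). Under WB436B they did so in EIF3K (-0.021 to 0.098) and EIF4G3 (-0.051 to 0.034), and between the treatments in EIF2B5 (-0.048 to 0.00053) and EIF4E (-0.0638 to 0.0020). Beyond the shift of the median, the cause was not tested.

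Same-numbered libraries correlated at -0.085 to 0.16 in their deviations from the group means and differently numbered ones at -0.12 to 0.074. Between vehicle and siRNA, same-numbered libraries stood at 0.042, 0.12 and 0.16 and differently numbered ones at -0.12 to 0.014. Same-numbered libraries of the other group pairs stood at -0.085 to 0.038. These values do not settle whether the numbers pair the samples. With the replicate block, 24, 39 and 33 members were called instead of 25, 38 and 34, and EIF4B was called lower under WB436B (-0.48, adjusted p = 0.044). With the block and median-of-ratios scaling together, the decrease of EIF4EBP2 under WB436B was not called (-0.17, adjusted p = 0.064). With 3 libraries against 3, an exact permutation test of a single gene cannot go below p = 0.1. Fragment counts behind the FPKM values are not known, and weak genes such as EIF5AL1 rest on few fragments.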
